A study of Homo sapiens with 24 samples.

Results

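The pro-apoptotic BH3-only genes BBC3, PMAIP1, BCL2L11, HRK, BMF, BIK, BID and BAD were read by gene symbol in the RNA-seq comparison tables of 4 human neuroblastoma cell lines, with and without GSK-J4. They are 8 of 39772 genes listed in at least 1 table, and each of the 8 is listed in all 4. GSK-J4 enters cells and blocks the histone demethylases KDM6A and KDM6B, which take methyl groups off lysine 27 of histone H3. The treated groups were LAN5 and IMR5, both MYCN-amplified and labelled sensitive to the compound, SK-N-FI, MYCN wild type and labelled sensitive, and SK-N-BE(2), MYCN-amplified and labelled resistant, each kept in 1 µM GSK-J4 for 72 hours. Each was set against untreated cells of the same line. There were 3 libraries a group and 24 in all, made from polyadenylated RNA. The data address which death genes an H3K27 demethylase inhibitor moves in sensitive cells and in a resistant line. With 1 resistant line and 1 sensitive line without amplification, resistance and MYCN status cannot be told apart from the identity of those lines.

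BH3-only proteins are the sensors of the BCL-2 family. Each carries a short helix, the BH3 motif, that fits a groove of the survival proteins BCL-2, BCL-XL, BCL-W and MCL-1, and some can also engage the pore-forming proteins BAX and BAK directly. BBC3 encodes PUMA, BCL2L11 encodes BIM and BID encodes BID, which are known both for binding every survival protein and for activating BAX and BAK. PMAIP1 encodes NOXA, a partner of MCL-1, HRK encodes HARAKIRI, a partner of BCL-XL best known from neurons deprived of growth factor, and BMF, BIK and BAD encode further neutralisers of survival proteins. In neuroblastoma, a tumour of the sympathetic nervous system, death of cells that lack trophic support runs through this group.

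The motif that defines the family is short, and its coding DNA is shown to let the members be compared. Each line gives the 27 bases (9 codons) from the conserved leucine on, 5′ to 3′ on the coding strand, in GRCh38 with the coding sequence of GENCODE v29. Capitals mark the codon of that leucine, the codon of the small residue and the codon of the aspartate after it.
BBC3 chr19:47226582-47226608 (minus strand): CTGcggcggatgGCGGACgacctcaac
BCL2L11 chr2:111150103-111150129 (plus strand): TTGcggcgtattGGAGACgagtttaac
BID chr22:17739418-17739444 (minus strand): CTCgcccaggtcGGGGACagcatggac
PMAIP1 chr18:59902673-59902699 (plus strand): CTCaggagatttGGAGACaaactgaac
HRK chr12:116881173-116881199 (minus strand): CTCaaggcgctaGGCGACgagctgcac
BMF chr15:40104198-40104224 (minus strand): CTTcagtgcattGCAGACcagttccac
BIK chr22:43127716-43127742 (plus strand): CTGgcctgcatcGGGGACgagatggac
BAD chr11:64271625-64271651 (minus strand): CTCcggaggatgAGTGACgagtttgtg
In all 8 members the core lies within 1 coding exon, and every one of them spells the aspartate GAC. The small residue is a glycine codon in PMAIP1, HRK, BCL2L11, BIK and BID, an alanine codon in BBC3 and BMF, and a serine codon in BAD. Not every transcript holds the core: it is in 9 of 17 annotated coding transcripts of BCL2L11, 4 of 11 of BID, 4 of 9 of BMF and 2 of 4 of BBC3. It is also in 1 of 2 of PMAIP1, 1 of 2 of HRK and 4 of 6 of BAD, and in the only 1 of BIK. The deposited values count whole genes, so transcripts with and without the motif are not separated.

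The files used here hold 1 comparison table per line and no value per library, so depth per library is unknown and no spread between libraries can be given beyond the authors' standard errors. Fold changes were read as GSK-J4 over untreated, a direction the tables do not state. With that reading the proliferation genes MKI67 and CCNB1 were lower in the 3 sensitive lines (MKI67 at -3.39 for LAN5, -1.81 for IMR5 and -2.21 for SK-N-FI, from the authors' deposited tables). The metal-response genes MT2A and SLC30A1 had the same sign in all 4 tables, with MT2A at 1.47 in the SK-N-BE(2) table as deposited by the authors. The table used for SK-N-FI was matched to that line by a similar short name and by elimination. Of 10 sympathetic neuroblast markers, 9 to 10 were listed in each table. With GSK-J4, 9 of 10 of them fell in LAN5, 5 of 9 fell in IMR5, 7 of 9 fell in SK-N-FI and 7 of 10 fell in SK-N-BE(2) in the authors' deposited tables. Another 3 of them rose in IMR5 (PHOX2A at 0.45, CHGB at 0.35 and GATA3 at 0.23) and 1 rose in SK-N-FI (GATA3 at 0.82), also by the authors' deposited tables. The 5 fibroblast and muscle markers summed to 34177 normalized counts in SK-N-BE(2), led by LUM and DCN, against 816 for LAN5, 1331 for IMR5 and 2536 for SK-N-FI, and 5 immune and endothelial markers summed to between 1.79 and 158. The part of these markers in the values below was not tested. The counts of neuroblast markers that rose or fell were not tested against the shares of all genes called, which are given below. In bulk RNA, fewer cells with a transcript and less of it per cell cannot be told apart.

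Among the 8 members, 4 rose and 3 fell in LAN5, 3 rose and 2 fell in IMR5, 3 rose and 1 fell in SK-N-FI, and none rose and 1 fell in SK-N-BE(2), where 7 had an adjusted p. BBC3 and HRK were the members that rose in all 3 sensitive lines. PMAIP1 rose in LAN5 and IMR5, the MYCN-amplified sensitive lines, and was not called in SK-N-BE(2), which is also MYCN-amplified. BCL2L11 fell in LAN5 and IMR5, and BMF fell in LAN5, SK-N-FI and SK-N-BE(2). At the authors' adjusted p under 0.05, 41.7% of all tested genes were called in LAN5, 44.1% for IMR5 and 31.6% for SK-N-FI, but 2.48% in SK-N-BE(2). Higher calls made up 22.5% of tested genes in LAN5, 22.6% for IMR5 and 16.8% for SK-N-FI, but 1.62% in SK-N-BE(2), and lower calls made up 19.2%, 21.6%, 14.8% and 0.858% in the same order. The median log2 fold change of the members in the authors' deposited tables was 0.58 for LAN5, 0.37 for IMR5 and 0.25 for SK-N-FI, with -0.0135 for SK-N-BE(2), beside 0.0935, 0.0158, 0.0103 and -0.000174 over all genes tested in those tables. With so few members and backgrounds this high in the sensitive lines, these counts describe the 8 genes and do not set them apart from other genes.

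**Figure D1:**
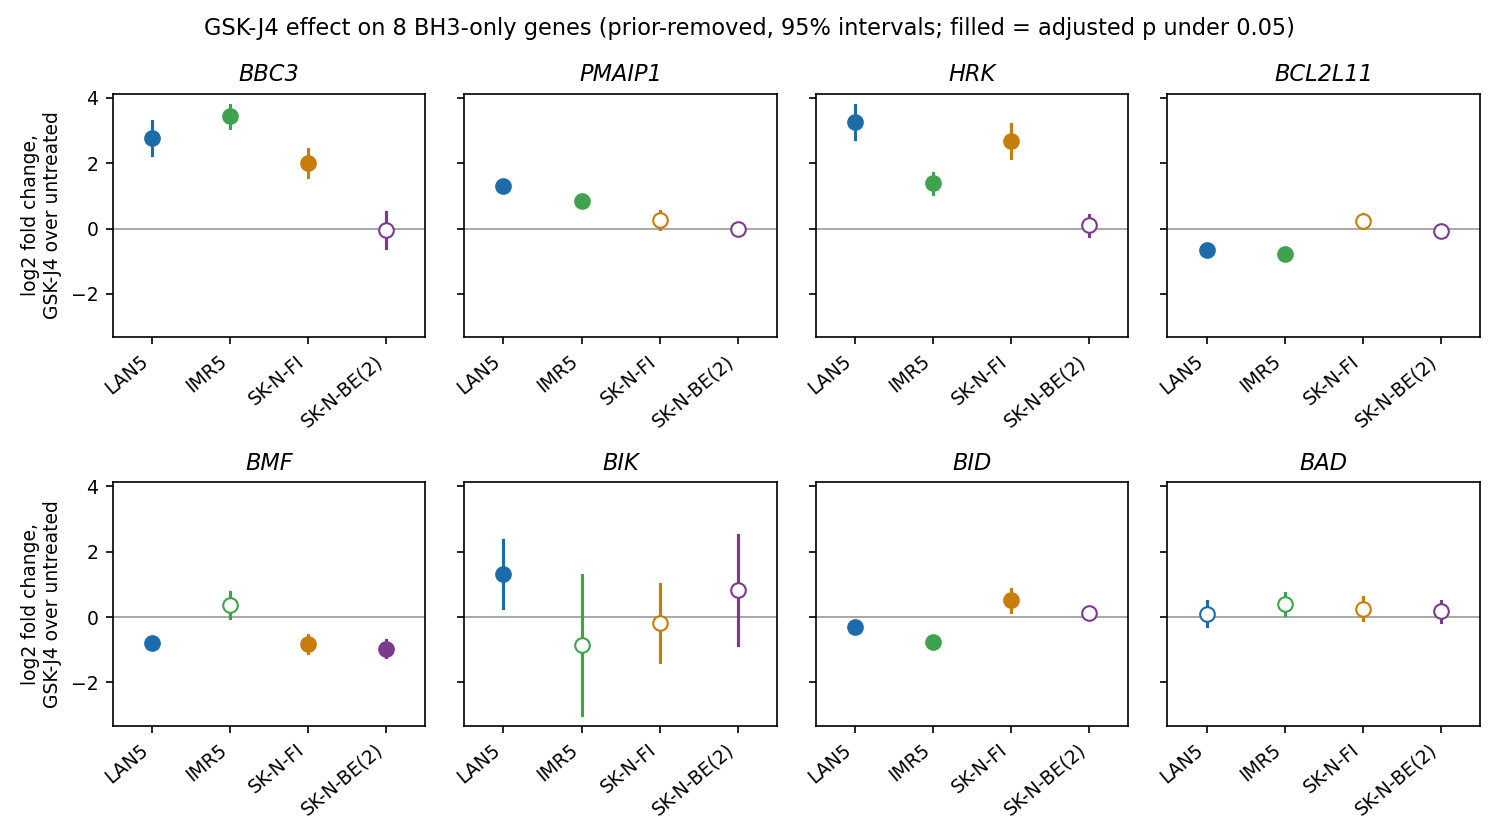
Prior-removed log2 fold change (GSK-J4 over untreated) of each BH3-only gene in the 4 lines, computed from the authors' deposited tables, with 95% intervals as bars and filled points where the authors' adjusted p was under 0.05. BBC3 and HRK stand far above 0 for LAN5, IMR5 and SK-N-FI, while in SK-N-BE(2) every interval but that of BMF crosses 0.

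Each table gives a gene's mean over the 6 libraries of its line. Together with the fold change it implies a mean for each group, put here on 1 scale across the tables by the median ratio of 8982 genes. For these means the authors' fold changes, which a prior pulled toward 0, were restored to their size before the prior, and such values are called prior-removed. The authors' adjusted p-values are given with them.

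Of the genes whose proteins both neutralise survival proteins and activate BAX and BAK, BBC3 had the largest fold change in each of the 3 sensitive lines, while none of them was called in SK-N-BE(2). BBC3 had an implied mean of 886 normalized counts in treated LAN5, against 129 in untreated LAN5. In IMR5 it reached 554 with GSK-J4, against 51.3 without it. In SK-N-FI the treated cells had 275 and the untreated cells 68.9, and in SK-N-BE(2) the treated cells had 43.4 and the untreated cells 45.0. Treated cells were thus higher in each sensitive line and level with untreated cells in the resistant one. Untreated SK-N-BE(2), at 45.0, was close to untreated IMR5, at 51.3, the line with the largest rise. The prior-removed increase was 6.85-fold in LAN5 (95% interval 4.81 to 9.75), 10.8-fold in IMR5 (8.39 to 13.9) and 3.99-fold in SK-N-FI (2.97 to 5.38). In the authors' deposited tables the adjusted p from DESeq2 was 2.99e-25 for LAN5, 1.06e-74 for IMR5 and 4.04e-18 for SK-N-FI. For SK-N-BE(2) the authors' deposited table gave an adjusted p of 0.978, and the prior-removed interval of the fold was 0.657 to 1.41, so a change of the size seen in the sensitive lines lies outside it.

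BCL2L11 moved the other way in the MYCN-amplified sensitive lines. Its implied mean was 429 in treated and 674 in untreated LAN5 cells. In IMR5 it was 446 with GSK-J4, against 771 without. SK-N-FI held the most BCL2L11 of any line, 2208 treated and 1888 untreated, and SK-N-BE(2) had 767 treated and 804 untreated. Treated cells had the lower level in LAN5 and IMR5, the higher in SK-N-FI and nearly the same in SK-N-BE(2). In LAN5 the deposited log2 fold change was -0.65 ± 0.0966 (SE) in the authors' deposited table, with an adjusted p of 1.72e-10. In IMR5 it was -0.78 ± 0.0905 in the authors' deposited table, with an adjusted p of 6.17e-17. SK-N-FI had 0.22 ± 0.109 (adjusted p = 0.107) and SK-N-BE(2) had -0.06 ± 0.0616 (adjusted p = 0.882) in the authors' deposited tables. A non-coding gene on the opposite strand, MIR4435-2HG, overlaps 727 bases of BCL2L11 exons, and the use of strand in counting is not given in the sources used here. In the authors' deposited tables that gene had a log2 fold change of 4.79 for LAN5 (mean normalized count 124), where BCL2L11 was lower. The values were 0.14 for IMR5, where it was barely detected (mean 2.45), -0.02 for SK-N-FI (mean 286) and 0.03 for SK-N-BE(2) (mean 86.8).

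BID, which caspase-8 cleaves into an active fragment, divided the sensitive lines. Its implied mean was 793 in treated and 989 in untreated LAN5 cells, and 425 in treated and 728 in untreated IMR5 cells. In SK-N-FI the treated level was the higher, with 416 treated and 292 untreated. SK-N-BE(2) held the highest level of the 4 lines in both states, 1236 treated and 1144 untreated. BID fell in LAN5 (log2 fold change -0.32 ± 0.0847, adjusted p = 0.000665) and in IMR5 (-0.77 ± 0.0898, adjusted p = 1.38e-16) and rose in SK-N-FI (0.49 ± 0.172, adjusted p = 0.0170), all in the authors' deposited tables. In SK-N-BE(2) the value was 0.10 ± 0.0598 with an adjusted p of 0.675 in the authors' deposited table.

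Among the members that act mainly by occupying survival proteins, PMAIP1 had the highest level per kilobase in every line. Its gene-wide counts gave implied means of 2375 in treated and 965 in untreated LAN5 cells. IMR5 had 2857 with GSK-J4 and 1606 without. SK-N-FI had 1120 treated and 932 untreated, and SK-N-BE(2) had 483 treated and 491 untreated. The treated level stood well above the untreated one in LAN5 and IMR5, little above it in SK-N-FI and level with it in SK-N-BE(2). The prior-removed increase was 2.46-fold in LAN5 and 1.78-fold in IMR5, with DESeq2 adjusted p-values of 8.39e-54 and 6.45e-34 in the authors' deposited tables. In SK-N-FI the prior-removed log2 fold change was 0.26 with a 95% interval from -0.000303 to 0.53, and the authors' deposited table gave an adjusted p of 0.127. In SK-N-BE(2) the interval of the fold was 0.872 to 1.11 (adjusted p = 0.974 in the authors' deposited table).

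HRK rose in the 3 sensitive lines, and its level was low in untreated LAN5 and SK-N-FI. Treated LAN5 cells had an implied mean of 177, against 18.6 in untreated LAN5 cells. In IMR5 the means were 283 treated and 108 untreated, in SK-N-FI 127 treated and 19.8 untreated, and in SK-N-BE(2) 146 treated and 136 untreated. Unlike BBC3, HRK was highest in SK-N-BE(2) among the untreated lines, so that after treatment the 4 lines came within 2.23-fold of each other, against 7.28-fold without it. The prior-removed increase was 9.49-fold in LAN5 (6.62 to 13.6), 2.62-fold in IMR5 (2.09 to 3.28) and 6.40-fold in SK-N-FI (4.47 to 9.16). DESeq2 adjusted p-values were 5.6e-33, 6.76e-16 and 2.95e-22 for those lines in the authors' deposited tables. In SK-N-BE(2) the prior-removed log2 fold change was 0.10 with a 95% interval from -0.22 to 0.42 (adjusted p = 0.938 in the authors' deposited table).

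BMF, which is known to sit on the cytoskeleton through a dynein light chain, was the member called in SK-N-BE(2). Its implied mean was 557 in treated and 960.0 in untreated LAN5 cells. In SK-N-FI it was 289 treated and 513 untreated, and in SK-N-BE(2) it was 161 treated and 315 untreated. IMR5 was the exception, with 97.1 treated and 74.6 untreated, the lowest levels of BMF in any line. The deposited log2 fold changes were -0.78 ± 0.0860 for LAN5 (adjusted p = 1.59e-18), -0.80 ± 0.138 for SK-N-FI (adjusted p = 8.66e-08) and -0.61 ± 0.0799 for SK-N-BE(2) (adjusted p = 2.74e-11) in the authors' deposited tables. In IMR5 it was 0.36 ± 0.196 in the authors' deposited table, with an adjusted p of 0.124. With the prior removed, SK-N-BE(2) had -0.97 ± 0.127, and the second solution of the equations that remove it would give -1.64 ± 0.216. The choice between them goes by the gene's mean alone, and the implied means of BMF rest on the first. BMF overlaps an antisense gene, BMF-AS1, over 461 bases of its exons on the opposite strand, which was not analysed here.

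BIK was barely detected, and BAD was called in no line. BIK, a protein of the endoplasmic reticulum, had implied means of 21.2 in treated and 8.51 in untreated LAN5 cells and stood under 10 in the other lines in both states. It rose in LAN5 (log2 fold change 1.06 ± 0.426, adjusted p = 0.0326) by the authors' deposited table, and it carries no adjusted p for SK-N-BE(2). BAD, whose protein is held inactive by 14-3-3 proteins while survival kinases phosphorylate it, had implied means of 135 treated and 125 untreated in LAN5, 137 and 105 for IMR5, 232 and 194 for SK-N-FI, and 161 and 142 for SK-N-BE(2). Its log2 fold changes were between 0.09 and 0.38 in the authors' deposited tables and none passed the test, with adjusted p-values from 0.0576 for IMR5 to 0.831 for SK-N-BE(2). BAD shares 404 exon bases with GPR137 on the opposite strand.

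**Figure D2:**
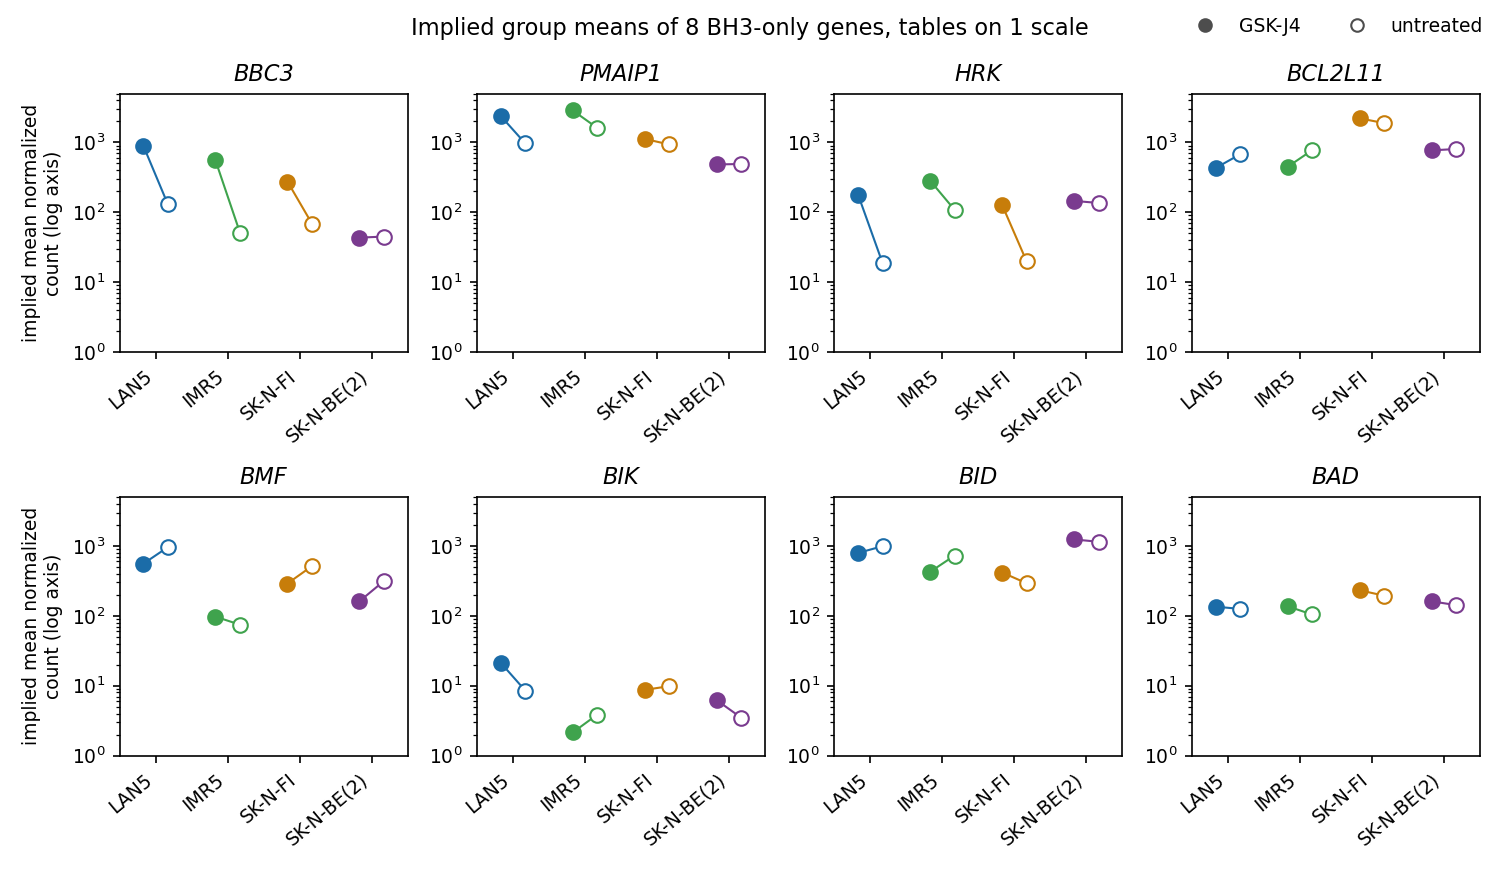
Implied mean normalized count of each BH3-only gene with GSK-J4 and without it in each line, on a log axis and on 1 scale across lines. The pairs of BBC3 and HRK are far apart in the 3 sensitive lines and close together in SK-N-BE(2), and BMF spans the widest range between untreated lines.

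Levels of different members were compared per kilobase of merged exon (GENCODE v29). In untreated cells PMAIP1 ranked first of the 8 for LAN5, IMR5 and SK-N-FI, with 432, 719 and 417 normalized counts per kilobase, and BID ranked first in SK-N-BE(2) with 257. BBC3 ranked 6 in untreated LAN5 and SK-N-FI, 5 in untreated IMR5 and 7 in untreated SK-N-BE(2). With GSK-J4 it ranked 2 for LAN5 (278 per kilobase, against 40.7 in untreated cells) and 2 for IMR5 (174, against 16.1), behind PMAIP1, which reached 1063 and 1278 per kilobase. In treated SK-N-FI, BCL2L11 kept rank 2 with 332 per kilobase and BBC3 ranked 5 with 86.5. In SK-N-BE(2) all 8 ranks were the same in treated and untreated cells. HRK remained low for its length, at 25.8 per kilobase in treated LAN5 against 2.72 in untreated LAN5.

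Across the untreated lines the levels of a single member differed by 1.86-fold to 12.9-fold from the lowest to the highest line. BMF had the widest range, with 960.0 for LAN5, 513 for SK-N-FI, 315 for SK-N-BE(2) and 74.6 for IMR5. BCL2L11 ran from 1888 for SK-N-FI through 804 for SK-N-BE(2) and 771 for IMR5 to 674 for LAN5, so that the last 3 lay close together. BBC3 ran from 129 for LAN5 through 68.9 for SK-N-FI and 51.3 for IMR5 to 45.0 for SK-N-BE(2), a range of 2.88-fold, which became 20.4-fold with GSK-J4. PMAIP1 was highest in IMR5 and lowest in SK-N-BE(2), and BAD differed least. No spread over libraries goes with these levels, so neighbours in an order were not tested.

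The next question was whether the response of a member differed between lines. The difference of prior-removed log2 fold changes was tested with a two-sided Wald test, with Benjamini-Hochberg adjustment over all genes whose mean reached 100 in the tables compared. Members below that mean were tested at a minimum of 50 or 20, which is given with their value. BIK was too weak for any of these tests. The 3 comparisons below draw on the same tables and are not independent of each other. For the mean of the 3 sensitive lines minus SK-N-BE(2), 3 of the 4 members above 100 passed, where 59.1% of all genes did, beside 56.8% at a minimum of 50 and 53.2% at 20. PMAIP1 differed by 0.82 ± 0.107 on the log2 scale (adjusted p = 1.49e-13), although it was not called in SK-N-FI. HRK differed by 2.34 ± 0.213 (minimum 50, adjusted p = 1.81e-26) and BBC3 by 2.79 ± 0.310 (minimum 20, adjusted p = 4.46e-18). These 3 differences kept their sign and their call when any 1 sensitive line was left out. BCL2L11 differed by -0.34 ± 0.0937 (adjusted p = 0.000813) and BID by -0.31 ± 0.102 (adjusted p = 0.00564), although neither gene fell in SK-N-FI. Without SK-N-FI the differences were -0.65 for BCL2L11 (adjusted p = 2.84e-10) and -0.66 for BID (adjusted p = 1.61e-11). Neither of the calls held without LAN5 (-0.21 with an adjusted p of 0.0628 for BCL2L11, and -0.24 with 0.0790 for BID) or without IMR5 (-0.15 with 0.234, and -0.02 with 0.926). BMF differed by 0.55 ± 0.154 (minimum 50, adjusted p = 0.000899), the fall being smaller in the mean of the sensitive lines, but without IMR5 the difference was 0.16 (adjusted p = 0.389). BAD differed by 0.07 with a 95% interval from -0.31 to 0.45.

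Between the MYCN-amplified sensitive lines and SK-N-FI, 4 of 5 members above 100 differed, where 47.4% of all genes did, beside 46.3% at a minimum of 50. BBC3 rose more in the mean of LAN5 and IMR5, by 1.11 ± 0.271 (adjusted p = 0.000210), and PMAIP1 by 0.80 ± 0.145 (adjusted p = 3.45e-07). BCL2L11 was lower by -0.95 ± 0.129 (adjusted p = 5.04e-12) and BID by -1.06 ± 0.190 (adjusted p = 2.54e-07). HRK differed by -0.36 ± 0.307 (minimum 50, adjusted p = 0.341), while IMR5 alone minus SK-N-FI gave -1.29 (adjusted p = 0.000174) and LAN5 alone minus SK-N-FI gave 0.57 (adjusted p = 0.197). BMF differed by 0.62 ± 0.180 (minimum 50, adjusted p = 0.00194), and LAN5 alone minus SK-N-FI gave 0.04 (adjusted p = 0.854).

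LAN5 and IMR5, which share their labels, did not share the size of every response. Of the members above 100, 2 of 5 differed between them, where 61% of all genes did, beside 59.2% at a minimum of 50. HRK rose more in LAN5, by 1.86 ± 0.313 (minimum 50, adjusted p = 1.66e-08), and PMAIP1 by 0.47 ± 0.106 (adjusted p = 3.40e-05). BMF was lower in LAN5 by -1.16 ± 0.222 (minimum 50, adjusted p = 6.79e-07), and BID was less lowered there, by 0.46 ± 0.124 (adjusted p = 0.000613). BBC3 differed by -0.66 with a 95% interval from -1.28 to -0.03 and an adjusted p of 0.0635. BCL2L11 differed by 0.14 with an interval from -0.12 to 0.40.

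**Figure D3:**
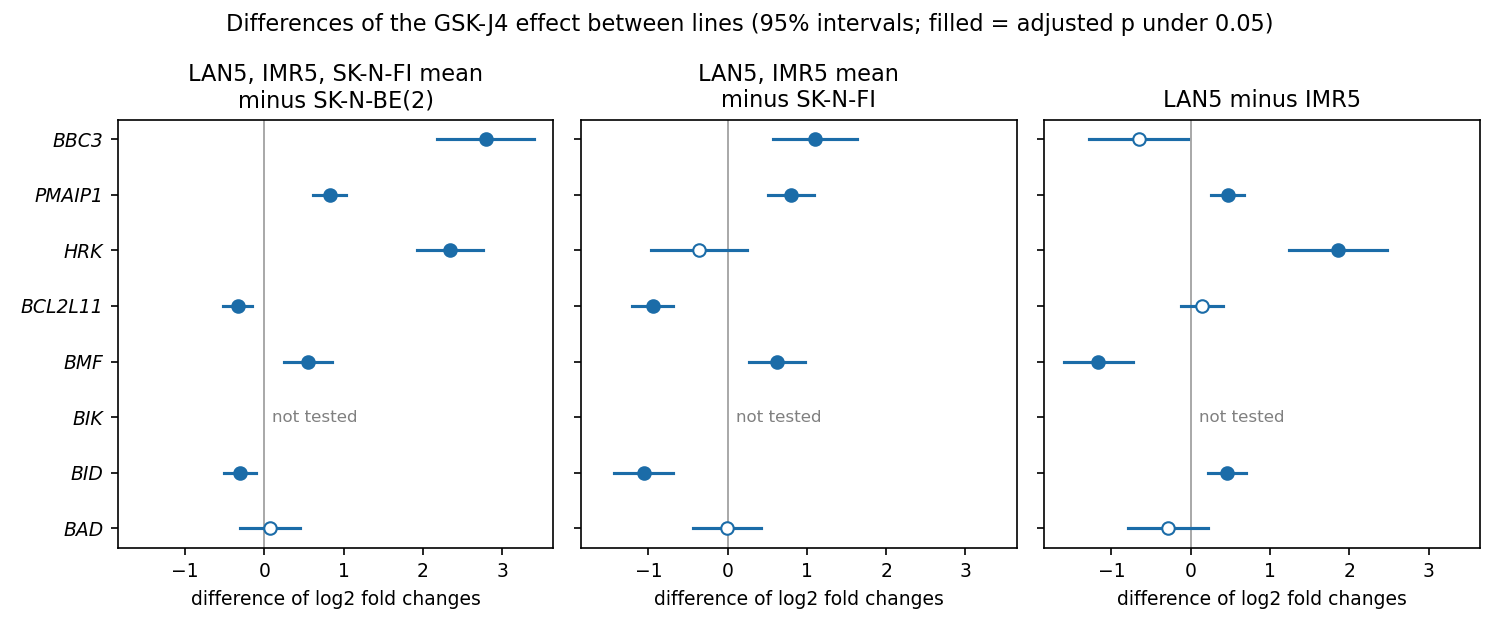
Differences of the prior-removed log2 fold change of each BH3-only gene between lines, with 95% intervals, for the mean of the sensitive lines minus SK-N-BE(2), the mean of LAN5 and IMR5 minus SK-N-FI, and LAN5 minus IMR5. BBC3, HRK and PMAIP1 lie to the right of 0 in the first comparison, and BCL2L11 and BID lie to the left of 0 in the first and second.

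The promoters of HRK, PMAIP1 and BBC3, the members called higher in both LAN5 and IMR5, are shown, and a shared regulator was not tested. Each is 300 bases, from 250 before to 50 after a RefSeq start in GRCh38.p14, on the coding strand, with the matched motif in capitals.
HRK chr12:116881392-116881691 (minus strand): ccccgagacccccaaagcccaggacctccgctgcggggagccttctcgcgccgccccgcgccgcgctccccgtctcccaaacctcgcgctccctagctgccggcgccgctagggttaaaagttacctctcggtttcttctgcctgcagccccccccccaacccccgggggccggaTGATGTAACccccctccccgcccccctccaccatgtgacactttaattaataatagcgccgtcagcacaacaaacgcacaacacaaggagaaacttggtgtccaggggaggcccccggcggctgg
PMAIP1 chr18:59899746-59900045 (plus strand): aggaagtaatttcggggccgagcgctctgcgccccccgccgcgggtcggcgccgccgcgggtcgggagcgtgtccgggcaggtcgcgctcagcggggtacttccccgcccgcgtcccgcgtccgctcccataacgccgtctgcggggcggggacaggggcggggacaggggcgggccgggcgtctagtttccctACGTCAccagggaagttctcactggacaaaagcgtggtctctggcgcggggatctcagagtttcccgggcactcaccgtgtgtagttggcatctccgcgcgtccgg
BBC3 chr19:47232618-47232917 (minus strand): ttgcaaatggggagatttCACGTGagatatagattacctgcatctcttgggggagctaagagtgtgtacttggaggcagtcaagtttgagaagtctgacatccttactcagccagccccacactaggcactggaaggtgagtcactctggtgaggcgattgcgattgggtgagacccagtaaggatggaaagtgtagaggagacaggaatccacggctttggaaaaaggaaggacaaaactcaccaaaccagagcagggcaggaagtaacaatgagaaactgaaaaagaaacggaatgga
Windows were found for 7 of the 8 members, all but BIK, with 13 windows in all, and were searched on both strands for 5 motifs. TGATGNAAN, the composite element bound by C/EBP and ATF factors such as CHOP and ATF4, is in 3.61% of 35116 promoter windows. Among the members it was found once, as TGATGTAAC in HRK, 75 bases before the start, and in none of the other 12 windows. TGACGT, a half-site of the cyclic AMP response element, is in 7.98% of windows and was found in PMAIP1 (56 bases before the start, as ACGTCA on the strand shown) and in BAD. CACGTG, the E-box, is in 7.26% of windows and was found in BBC3 (232 bases before the start) and in BID. GTAAACA, a core of forkhead sites, is in 3.42% of windows and was found in BCL2L11, 223 bases before the start. The full element TGACGTCA, which contains the half-site, is in 1.85% of windows and in no member's window. A match describes the letters only, and binding was not measured.

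The genes whose fold changes over the 4 lines lay nearest to a member were named from 8704 genes whose mean reached 100 in every table, by Euclidean distance between the 4 prior-removed log2 fold changes. For BBC3 the nearest were DDIT3 (distance 0.402), ASNS (0.704) and SAT1 (0.942). DDIT3 encodes CHOP, a transcription factor of the integrated stress response, and its prior-removed values were 2.83 for LAN5, 3.67 for IMR5 and 2.32 for SK-N-FI, with -0.07 for SK-N-BE(2). For HRK the nearest were SERPINE2 (0.583), SLC3A2 (1.26) and SESN2 (1.39). For PMAIP1 they were STX5, RNF14 and WBP2 (0.126 to 0.157), and for BCL2L11 they were MRPS12, TFB2M and RECQL4 (0.0961 to 0.150). For BID they were SLC6A6, ENY2 and BRD8 (0.229 to 0.244), for BAD ZC3H7A, CALD1 and NFATC4 (0.104 to 0.136), and for BMF SHD, CDH24 and DQX1 (0.696 to 0.850).

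Of 16 transcription factors known to act on BH3-only genes, 15 had an adjusted p in each table. Their counts were not tested against the shares of all tested genes. Those shares were 16.8% to 22.6% higher and 14.8% to 21.6% lower in the 3 sensitive lines. The resistant line had 1.62% higher and 0.858% lower. In LAN5 7 rose and 5 fell, in IMR5 9 rose and 3 fell, in SK-N-FI 6 rose and 2 fell, and in SK-N-BE(2) none rose and 1 fell. Their median log2 fold change was 0.16 for LAN5, 0.58 for IMR5 and 0.23 for SK-N-FI, and SK-N-BE(2) had 0.0267, by the authors' deposited tables, beside the medians of all genes given above. DDIT3 rose in the 3 sensitive lines, where its log2 fold change was 2.77 for LAN5, 3.35 for IMR5 and 2.21 for SK-N-FI, against -0.04 for SK-N-BE(2), in the authors' deposited tables. ATF4, which drives DDIT3 in stressed cells, had 0.94, 0.71 and 1.44 in the sensitive lines and -0.00 for SK-N-BE(2) in the authors' deposited tables. CEBPB had 1.53, 2.75 and 1.90, against -0.12, in the same order in the authors' deposited tables. The cell-cycle inhibitor CDKN1A (3.45 and 2.16) and the ubiquitin ligase MDM2 (1.75 and 0.88) rose in LAN5 and IMR5, while in SK-N-FI CDKN1A had 0.12 (adjusted p = 0.439), in the authors' deposited tables. MYCN fell in LAN5 (-1.90) and IMR5 (-1.07) in the authors' deposited tables.

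The genes that encode the proteins bound by BH3-only proteins were split in their RNA, and protein was not measured. Of 6 survival genes, 5 were tested in LAN5 (2 rose, 1 fell) and 4 in the other lines (1 rose and 2 fell in IMR5, 1 rose in SK-N-FI, none changed in SK-N-BE(2)). BCL2 fell in LAN5 (-0.68) and IMR5 (-0.50), and BCL2L2, which encodes BCL-W, rose in LAN5 (0.90), IMR5 (0.57) and SK-N-FI (0.64) according to the authors' deposited tables. MCL1, which encodes the partner of NOXA, had 0.52 for LAN5 and -0.61 for IMR5, both called, in the authors' deposited tables. BCL2L1, which encodes BCL-XL, was called in none of the 4 lines. Of the 3 effectors, all rose in LAN5 (BAX 1.01, BAK1 1.05, BOK 1.02), BAK1 rose in IMR5 (0.61), and in SK-N-FI both BAK1 (0.40) and BOK (0.79) rose, as the authors' deposited tables give. None changed in SK-N-BE(2). Calls in either direction made up 31.6% to 44.1% of all tested genes in the 3 sensitive lines and 2.48% in the resistant line. The counts of survival genes and effectors were not tested against those shares. The median of the survival genes was 0.52 for LAN5, -0.25 for IMR5 and 0.21 for SK-N-FI, and SK-N-BE(2) had -0.0285, and that of the effectors 1.02, 0.17, 0.40 and 0.0321, by the authors' deposited tables.

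Of 16 partners and regulators of BH3-only proteins, 4 rose and 7 fell in LAN5, 2 rose and 11 fell in IMR5, none rose and 5 fell in SK-N-FI, and none rose and 1 fell in SK-N-BE(2). Their median log2 fold change was -0.0988 for LAN5, -0.32 for IMR5 and -0.15 for SK-N-FI, and SK-N-BE(2) had -0.0138, by the authors' deposited tables. Among all tested genes, lower calls made up 14.8% to 21.6% in the 3 sensitive lines, and higher calls 16.8% to 22.6%. Neither the counts of partners nor those of the apoptosome genes below were tested against those shares. The partner gene that fell in all 4 lines was DYNLL2, which encodes the dynein light chain that tethers BMF. By the authors' deposited tables it had -0.54 in LAN5 and -0.62 in IMR5, while SK-N-FI had -0.23 (adjusted p = 0.0330) and SK-N-BE(2) had -0.17 (adjusted p = 0.0177). DYNLL1, which encodes the light chain that tethers BIM, fell in LAN5 (-0.74) and IMR5 (-2.02) in the authors' deposited tables. YWHAE encodes one of the 14-3-3 proteins that hold BAD. In the authors' deposited tables it had log2 fold changes of -0.84 for LAN5, -0.62 for IMR5 and -0.33 for SK-N-FI, all called. The other listed 14-3-3 genes were mixed. By the authors' deposited tables YWHAB (0.63) and YWHAZ (0.41) rose in LAN5, YWHAH (-0.71) and YWHAQ (-0.51) fell there, and YWHAG was not called. All of them fell in IMR5, and only YWHAG (-0.24) among them was called in SK-N-FI. CASP8, whose protein cleaves BID, rose in LAN5 (1.88, mean normalized count 55.7) and fell in IMR5 (-1.09, mean normalized count 19.9) in the authors' deposited tables. Of 8 genes of the apoptosome and the caspases it drives, 5 rose and 3 fell in LAN5, 1 rose and 2 fell in IMR5, none rose and 3 fell in SK-N-FI, and none rose and 1 fell, DIABLO, in SK-N-BE(2). Their median was 0.38 for LAN5, -0.0152 for IMR5 and -0.27 for SK-N-FI, and SK-N-BE(2) had 0.000508, by the authors' deposited tables.

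**Figure D4:**
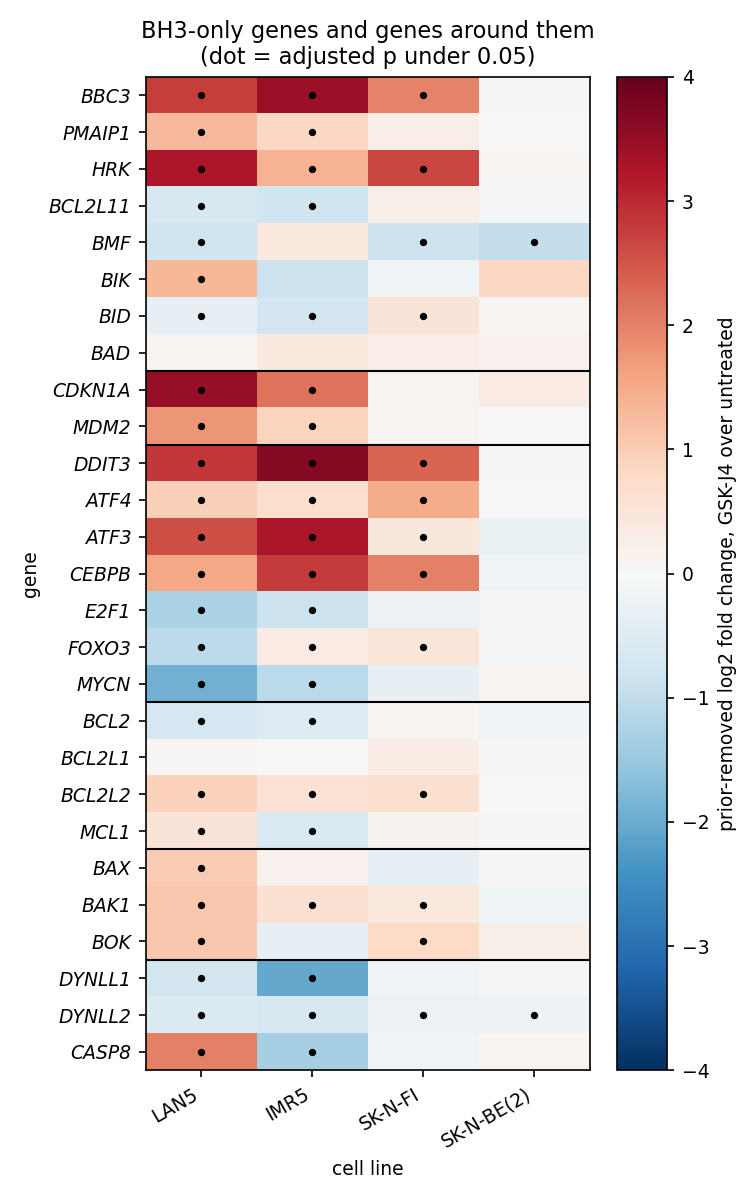
Prior-removed log2 fold changes (GSK-J4 over untreated, colour scale) of the BH3-only genes and of selected factors, survival genes, effectors and partners (y axis) in each line (x axis), with a dot where the authors' adjusted p was under 0.05. DDIT3 and CEBPB carry the same sign as BBC3 in the 3 sensitive lines, MCL1 and CASP8 have opposite signs in LAN5 and IMR5, and SK-N-BE(2) has dots at BMF and DYNLL2 only.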

How the data were processed

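Polyadenylated RNA was sequenced from 24 libraries, 3 for each of 8 groups, with a strand-specific kit for mRNA according to the labels' protocols. Per the submitters' processing notes, FastQC, STAR, DESeq2 and the build hg38 were used, with no versions. For the annotation, the counting tool and its use of strand, the sources used here give nothing. No source says that replicates are separate cultures, and the p-values then reflect only how these libraries vary, which may be technical.

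Each line has 1 deposited table. Its signal column is, per the file headers, the authors' mean of normalized counts over the line's libraries. The log2 fold change, its standard error, the Wald statistic (a score) and the p-value, raw and adjusted, are the authors' and are reported as deposited. Count tests, planned in case the files held counts, did not apply to these tables. The table used for SK-N-FI bears a short name like that of the line, and every value of SK-N-FI rests on that match. The sign was read as GSK-J4 over untreated from MKI67 and CCNB1 in the sensitive lines and from MT2A and SLC30A1 for SK-N-BE(2), and a reversed table would turn each direction of its line.

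Deposited standard errors peak at 0.539 for LAN5, 0.490 for IMR5 and 0.428 for SK-N-FI, with 0.0828 for SK-N-BE(2), as a prior on the fold change gives, so shrinkage was strongest in SK-N-BE(2). The prior was removed by solving for the unshrunken fold change, with a prior standard deviation of 2 times that maximum. Of the pair of solutions, the smaller error was used above the mean where the running median of the error over 501 genes peaks (134 for SK-N-BE(2), 3.15 to 4.66 in the other lines), and the other below it. In the SK-N-BE(2) table the score differed from fold change over error for 19488 genes, so the equations may hold less well there. BBC3 lies below 134 in that table.

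Differences between lines were assessed on prior-removed values by a Wald test, two-sided, checked on simulated data, with Benjamini-Hochberg adjustment over all genes above the minimum mean. A call is an adjusted p under 0.05. The genes named are the 8 members, the genes of lists around them, the 3 genes nearest to each member, and those chosen after their values were seen in the closing section. Some listed genes are not reported here. Members and lists were chosen with earlier results of these data known. Python 3.11.15, numpy 2.4.6, pandas 2.3.3, SciPy 1.17.1 and matplotlib 3.10.9 were used.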

Additional observations from a re-analysis of the deposited data

Results flagged for a closer look

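For the following members the difference of the response between lines itself passed the test (prior-removed log2 fold changes, Wald test, adjusted p under 0.05). For the mean of LAN5, IMR5 and SK-N-FI minus SK-N-BE(2), the difference was 2.79 for BBC3, 0.82 for PMAIP1, 2.34 for HRK, -0.34 for BCL2L11, 0.55 for BMF and -0.31 for BID. For the mean of LAN5 and IMR5 minus SK-N-FI, it was 1.11 for BBC3, 0.80 for PMAIP1, -0.95 for BCL2L11, 0.62 for BMF and -1.06 for BID. For LAN5 minus IMR5, it was 0.47 for PMAIP1, 1.86 for HRK, -1.16 for BMF and 0.46 for BID. At a minimum mean of 100, 59.1%, 47.4% and 61% of all genes passed in these 3 comparisons. Without IMR5, the first difference of 3 of these members missed the test: the mean of LAN5 and SK-N-FI minus SK-N-BE(2) was 0.16 for BMF (adjusted p = 0.389), -0.15 for BCL2L11 (adjusted p = 0.234) and -0.02 for BID (adjusted p = 0.926). Without LAN5 it also missed for BCL2L11 (-0.21, adjusted p = 0.0628) and BID (-0.24, adjusted p = 0.0790).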

How the results depend on the processing

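No paired analysis was possible because the tables hold no values per library. For the same reason a count model, another normalization, a fit with a replicate block and fits that leave out 1 library were not run. The number of members called in each line stayed within 1.5 times under every alternative run. BIK in LAN5 (adjusted p = 0.0326) and BID in SK-N-FI (adjusted p = 0.0170) miss a threshold of 0.01, and BAD in IMR5 passes 0.05 when p is adjusted over genes with a mean of at least 50 (0.0376). For sensitive lines minus SK-N-BE(2), the members called were 3 of 4 at a minimum mean of 100, 5 of 6 at 50 and 6 of 7 at 20, and at 100 they were 1 of 4 without LAN5 and 1 of 5 without IMR5, PMAIP1 in both. For LAN5 minus IMR5 they were 2 of 5 at 100, and 4 of 7 at 50 and at 20. With deposited in place of prior-removed values, BMF for sensitive lines minus SK-N-BE(2) was 0.20 (adjusted p = 0.121) and BBC3 for LAN5 minus IMR5 was -0.69 (adjusted p = 0.0386). Without IMR5, and with the second solution for SK-N-BE(2), which was chosen after seeing the data, the difference of BMF was 0.84 ± 0.231 (adjusted p = 0.000908). With all sensitive lines kept, that solution gave PMAIP1 a wider error, 0.87 ± 0.310 (Wald test, adjusted p = 0.0101). BBC3 and HRK stayed called under it, at 2.75 and 2.34. The median prior-removed log2 fold change in LAN5 was 0.12 over all tested genes and -0.0871 over those with a mean of at least 100. Centring each line on its median over the genes compared changed no call. With tables scaled by their sums, the order of lines by level was as before for all 8 members in untreated cells and for 5 of 8 in treated cells, where IMR5 changed places with LAN5 for BCL2L11 and BAD and with SK-N-FI for BID. For the mean of LAN5 and IMR5 minus SK-N-FI, values that missed the test changed sign: HRK was 0.57 without IMR5 (against -0.36), and BAD was 0.0691 when centred and 0.13 without LAN5 (against -0.00909). No called difference of a member changed sign under the alternatives run. Depth per library is unknown, and BIK, with means from 3.36 to 14.2, is too weak for a comparison between lines.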

Other observations

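MCL1, JUN and FOXO3 moved in opposite directions in LAN5 and IMR5, which share sensitivity and MYCN status. The genes in this paragraph were chosen after their values were seen. MCL1, which encodes the survival protein that NOXA binds, rose in LAN5 (log2 fold change 0.52) and fell in IMR5 (-0.61) in the authors' deposited tables. The prior-removed difference was 1.13 ± 0.0840 (Wald test, adjusted p = 2.65e-39). JUN, a factor known to raise HRK and BCL2L11 in neurons, fell in LAN5 (-0.47) and rose in IMR5 (2.38) in the authors' deposited tables, with a difference of -2.88 ± 0.129 (adjusted p = 1.67e-107). HRK rose in both lines, with a log2 fold change of 3.06 in LAN5 and 1.35 in IMR5 in the authors' deposited tables. A link between JUN and HRK was not tested. FOXO3, a forkhead factor known to raise BCL2L11 and BBC3, fell in LAN5 (-1.05) and rose in IMR5 (0.31) in the authors' deposited tables, with a difference of -1.37 ± 0.117 (adjusted p = 3.65e-30). BAX, an effector that BH3-only proteins activate, rose in LAN5 (1.01) and had 0.17 in IMR5 (adjusted p = 0.104) in the authors' deposited tables, with a difference of 0.84 ± 0.120 (adjusted p = 2.63e-11). Differences between these lines are common, since 61% of all genes passed the same test.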
